A study of Homo sapiens with 96 samples.

Results

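The genes described here are 55 genes of the G2 phase and mitosis, chosen by gene symbol from a named list, of 11940 genes that the arrays' annotation names. The list was chosen with earlier results of these data known. All 55 were measured, by 91 probe sets, and 21 had more than 1 probe set. RNA of MDA-MB-231 cells, an established human breast cancer line, was measured on 96 Affymetrix arrays in 3 series of 32 arrays each, 2D03 and 2D04 from 2D culture and 3D04 from 3D culture. All cells had been grown to 80% confluence and then kept in low serum for 24 h, so every group, controls included, carried this treatment. The arms were untreated control, EGF at 10 ng/ml from 0 h, EGF after 30 min with the vehicle DMSO (DMSO-EGF), and EGF after 30 min with 10 uM U0126, an inhibitor of the kinase MEK (called the U0126 arm). Each arm was sampled at 0.5, 1, 4, 8, 12, 24 and 48 h, by 1 array in each series, which gives 2 repeats in 2D and none in 3D. At 0 h there were 4 control, 2 DMSO and 2 U0126 arrays in 2D, and 2, 1 and 1 in 3D. The labels do not say whether the 2 arrays of a 2D group are separate cultures, so p-values measure the spread between these samples. What the 3D culture consisted of is not given in the sources used here. No second MEK inhibitor was used, so loss of MEK activity and actions of U0126 on other proteins cannot be told apart. The deposited values were centred on an unknown reference per probe set, so a value near 0 is no absolute level, only differences between arrays are compared, and the labelled cell type could not be checked through levels of its markers.

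Cells commit to division in G1, where signalling from growth factor receptors through MEK and its target kinase ERK helps to switch on cyclin D and release the E2F factors that drive DNA replication genes. The genes described here follow later. Their transcription is held down in resting and early G1 cells by the DREAM complex and is switched on in S and G2 by the MuvB core of that complex together with B-MYB and FOXM1, largely through a promoter element named CHR (cell cycle genes homology region), often with CCAAT boxes bound by NF-Y. Their products build the engine that starts mitosis (CDK1 with cyclins A and B), attach chromosomes to the spindle, check that attachment, separate the chromatids and divide the cell. In bulk RNA, fewer cells in G2 and mitosis and less RNA per cell cannot be told apart.

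The promoters are shown first because the elements just named can be read in them. The window searched ran from 250 bases before to 50 bases after the start of each gene, from RefSeq on GRCh38.p14, and was present for 45 of the 55 genes. It was not matched for FOXM1, RACGAP1, PBK, BUB3, BIRC5, TROAP, UBE2C, TPX2, AURKA and TTK. The 110 bases before the start are printed for 7 genes with a CHR match. They are also printed for MELK and MYBL2, which have no match to either element there. Each is given 5′ to 3′ on the gene's own strand. Capitals mark matches to the CHR (TTTGAA or TTCGAA) and to the CCAAT box (CCAAT), each searched on both strands, so that ATTGG is a CCAAT box on the other strand. The windows lie at chr15:59105036-59105145 (CCNB2, plus strand), chr16:23678779-23678888 (PLK1, plus strand), chr1:43358871-43358980 (CDC20, plus strand), chr2:26785946-26786055 (CENPA, plus strand), chr15:90994536-90994645 (PRC1, minus strand), chr5:163460522-163460631 (HMMR, plus strand), chr1:37692406-37692515 (CDCA8, plus strand), chr9:36572785-36572894 (MELK, plus strand) and chr20:43667004-43667113 (MYBL2, plus strand).
CCNB2: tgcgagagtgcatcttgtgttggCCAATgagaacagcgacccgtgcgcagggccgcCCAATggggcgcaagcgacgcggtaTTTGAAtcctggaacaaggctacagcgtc
PLK1: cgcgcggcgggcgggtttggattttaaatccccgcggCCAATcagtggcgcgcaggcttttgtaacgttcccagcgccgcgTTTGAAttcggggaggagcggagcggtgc
CDC20: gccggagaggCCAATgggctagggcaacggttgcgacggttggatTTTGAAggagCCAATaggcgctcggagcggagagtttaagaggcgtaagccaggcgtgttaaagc
CENPA: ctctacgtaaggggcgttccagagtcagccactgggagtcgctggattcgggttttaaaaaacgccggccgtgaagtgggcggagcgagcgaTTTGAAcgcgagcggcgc
PRC1: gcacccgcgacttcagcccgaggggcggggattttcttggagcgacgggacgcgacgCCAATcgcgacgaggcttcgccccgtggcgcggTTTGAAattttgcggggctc
HMMR: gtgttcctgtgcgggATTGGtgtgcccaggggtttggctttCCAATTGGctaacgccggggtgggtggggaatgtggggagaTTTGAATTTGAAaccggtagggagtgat
CDCA8: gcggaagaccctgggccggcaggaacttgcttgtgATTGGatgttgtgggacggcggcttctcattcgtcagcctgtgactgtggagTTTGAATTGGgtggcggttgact
MELK: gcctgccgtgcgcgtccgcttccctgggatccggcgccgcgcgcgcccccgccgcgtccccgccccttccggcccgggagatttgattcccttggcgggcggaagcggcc
MYBL2: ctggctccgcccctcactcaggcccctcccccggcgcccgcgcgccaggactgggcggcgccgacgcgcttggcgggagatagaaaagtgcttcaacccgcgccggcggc
The CHR lay 29 bases before the start in both CCNB2 and PLK1, 20 before it in PRC1, 18 in CENPA and 23 in CDCA8. In CDCA8 the CHR and a CCAAT box on the other strand share bases, and in HMMR 2 copies of the CHR stand side by side.

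A CHR was found in 34 of the 45 promoters (75.6%), against 17.2% of the 9593 array genes with a promoter and 19.5% of all 27305 promoters in the table. In the last 50 bases before the start it was found in 21 of 45 (46.7%, against 2.96% of the array genes). A CCAAT box stood in 34 of 45 (75.6%, against 44.4%), and 22 held 2 or more (48.9%, against 15.9%). Both elements together occurred in 27 of 45 (60.0%, against 7.38%). An E2F-type site was found in 14 of 45 (31.1%, against 19.5%). It was searched on both strands in the form TTCGCGC, in the form TTGGCGC and in the form TTCCCGC. For comparison, of 38 promoters of G1/S and DNA replication genes 13.2% held a CHR and 81.6% an E2F-type site. The genes with no match to TTTGAA or TTCGAA in the window were AURKB, CCNA2, CCNB1, CENPE, LMNB1, MELK, MYBL2, NCAPH, NEK2, PTTG1 and TACC3. Other forms of the CHR were not searched, so these genes may hold one. A match is a description of letters and not of a bound factor, and a CHR and a CCAAT match can share bases.

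**Figure D1:**
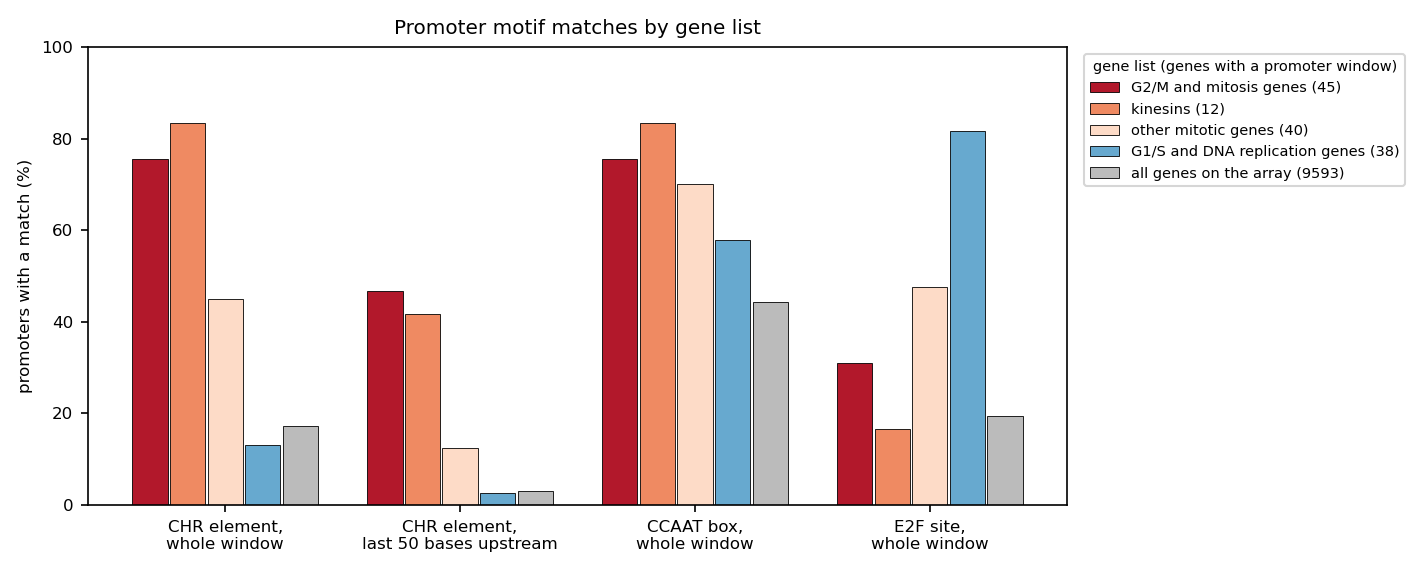
Percent of promoters (vertical axis) that hold each sequence element (horizontal axis), for the 45 matched G2/M and mitosis genes, all 9593 array genes with a promoter, and gene lists for comparison. The CHR was found in 75.6% of the G2/M and mitosis promoters and in 17.2% of those of all array genes.

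In 2D culture these genes were lower with U0126 at 48 h, and at 24 h the 2 series differed: the median difference was -0.01 in 2D03 and -0.56 in 2D04, where 54 of 55 genes lay below 0. With both series together, at 24 h 0 of the 55 genes passed the test for a lower value with U0126 than with DMSO-EGF (percent of all 11940 genes called lower 1.16), while at 48 h 49 of 55 did (all genes 3.84) and all 55 differences lay below 0. The median difference over the 55 genes was -0.29 at 24 h and -1.61 at 48 h on the log2 scale, against a median over all genes of 0.01 at both times. In 3D culture the fall was present at 24 h: the median difference in series 3D04 was -2.07 at 24 h and -2.63 at 48 h. The test was limma's moderated test with Benjamini-Hochberg adjustment over all genes and a threshold of 0.05. At 24 h in 2D, 8 of the 55 genes were at an unadjusted p under 0.05, against 1321 of all 11940 genes. Without the DMSO-EGF array of series 2D04 at 48 h, the 48 h count was 29. A fit with the series as a block called 15 genes at 24 h (all genes 5.44) and 53 at 48 h (all genes 8.98).

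**Figure D2:**
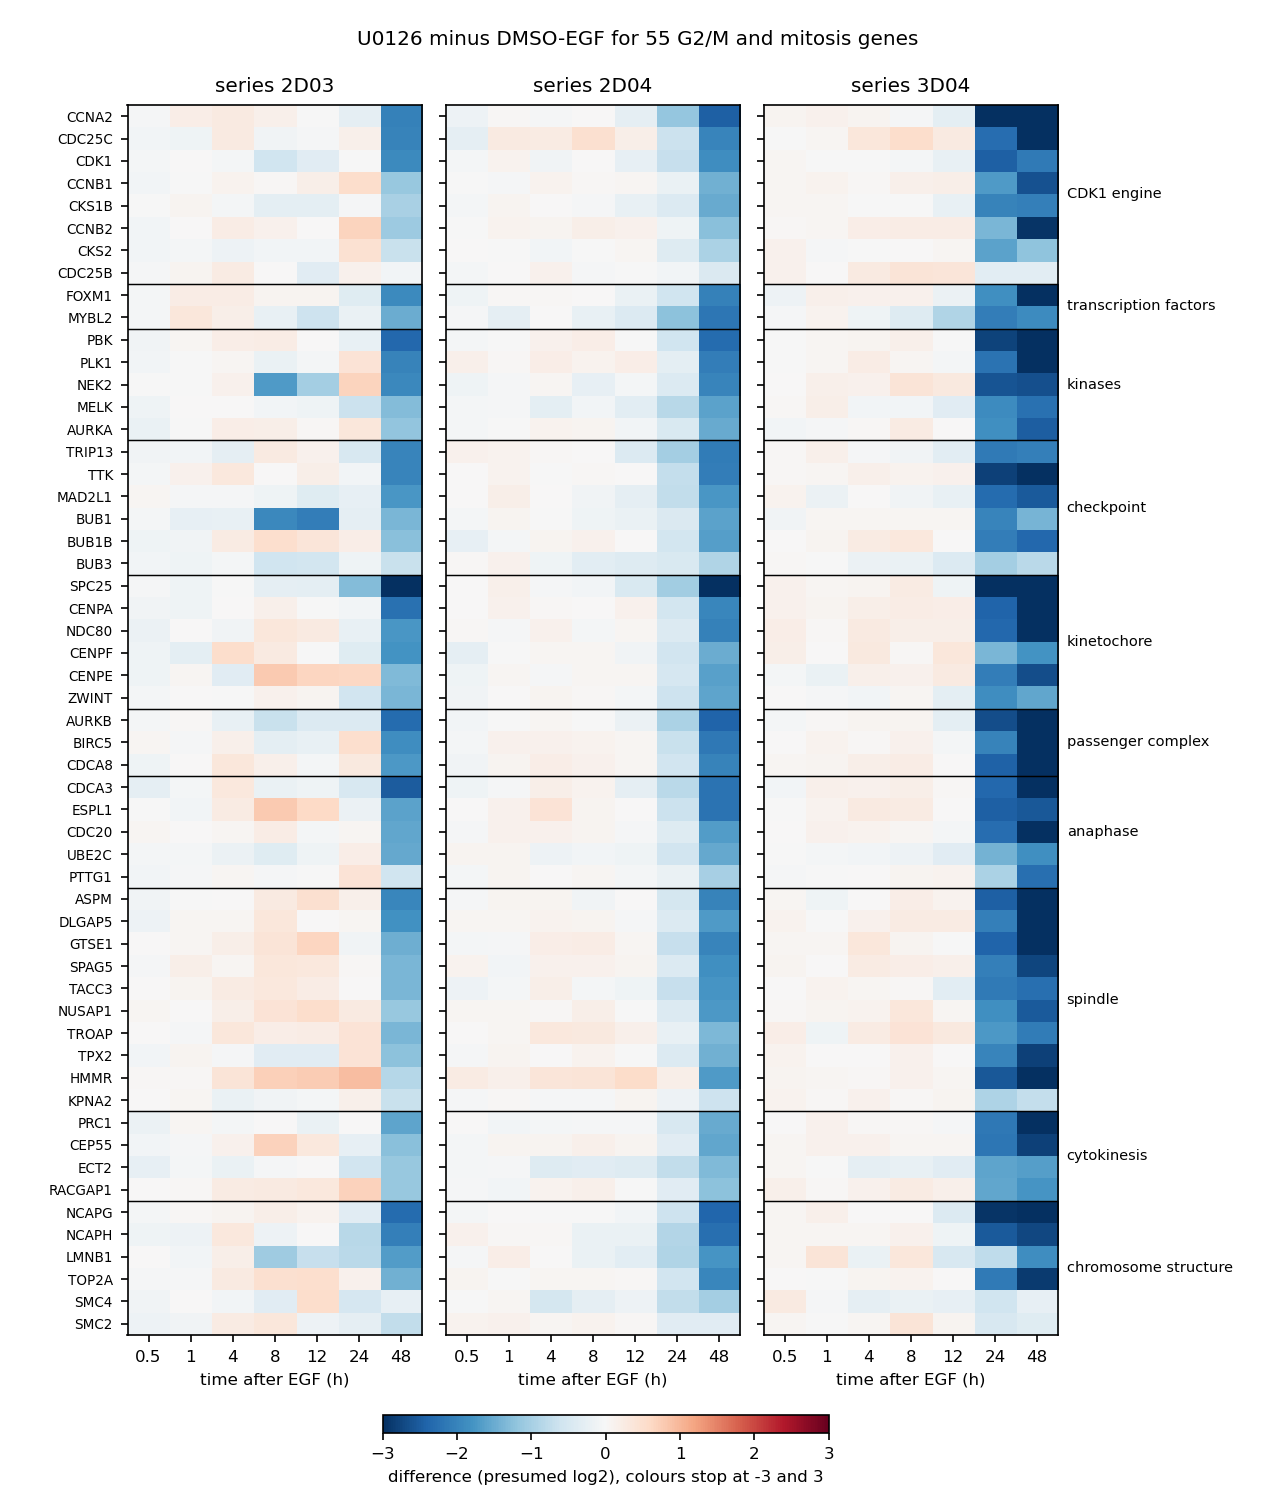
U0126 minus DMSO-EGF difference (log2, colour scale) of each of the 55 genes (vertical axis, ordered by role) at each time in hours after EGF (horizontal axis), for series 2D03, 2D04 and 3D04, with 1 array per arm and time in each panel. Low values fill the 48 h column in 2D03 and 2D04 and both the 24 h and 48 h columns in 3D04; the medians at 24 h were -0.01, -0.56 and -2.07.

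Before 24 h few differences passed the test. After 30 min with U0126 alone, at 0 h, 0 of 55 genes passed against DMSO in 2D (all genes 0.0). With EGF, 0 passed as lower at 0.5 h (all genes 0.0), 1 h (all genes 0.00838), 4 h (all genes 0.402), 8 h (all genes 1.18) and 12 h (all genes 1.24). At an unadjusted p under 0.05 there were 0 at each of 0.5, 1 and 4 h and 4 at each of 8 and 12 h. Of all 11940 genes, 75, 96, 511, 1330 and 1507 were at such a p at these 5 times. With the series block, 1 passed at 8 h (all genes 4.62) and 2 at 12 h (all genes 6.89). The median difference in 3D04 at 12 h was 0.01. Averaged over the early window (0.5 and 1 h) and the middle window (4, 8 and 12 h), 0 of 55 passed in 3D (all genes 0.193 and 5.25). There were 0 and 6 at an unadjusted p under 0.05, against 395 and 2552 of all 11940 genes. In the middle window of 2D, BUB1 and BUB3 passed as lower (all genes 5.12) and HMMR as higher (all genes 2.14). With the series block 4 passed as lower there (all genes 12.4): BUB1, BUB3, ECT2 and LMNB1.

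The middle-window values include a pair of arrays that stood apart. The U0126 arrays of series 2D03 at 8 h and 12 h had actin probe sets whose 5′ values lay 1.26 and 1.08 below their 3′ values (differences -1.26 and -1.08), where every other array lay between -0.36 and 0.31. On these 2 arrays BUB1, a checkpoint kinase, read -0.74 and -1.18, against 1.2 and 0.90 on the DMSO-EGF arrays of the same times. LMNB1, which encodes lamin B1 of the nuclear envelope, read -1.57 and -1.44 there, against -0.50 and -0.76. In series 2D04 and 3D04 BUB1 did not drop at these times, with 12 h differences of -0.19 and 0.06. Over the whole middle window BUB1 stood at -0.76 ± 0.24 (SE, adjusted p = 0.045, limma) and BUB3 at -0.34 ± 0.09 (adjusted p = 0.014). Without the 2 arrays these became -0.07 ± 0.16 (adjusted p = 0.97) and -0.32 ± 0.11 (adjusted p = 0.12), and 0 genes passed as lower. HMMR, which encodes a spindle and hyaluronan-binding protein, was 0.52 ± 0.13 higher (adjusted p = 0.0063), and 0.36 ± 0.14 without them (adjusted p = 0.23). Its differences at 4, 8 and 12 h were 0.39, 0.71 and 0.76 in 2D03, 0.37, 0.38 and 0.54 in 2D04, and 0.04, 0.14 and 0.06 in 3D04. All other results below use every array.

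The engine of mitotic entry gives the pattern gene by gene. CDK1 is the kinase that starts mitosis. At 24 h CDK1 read 0.02, -0.10, -0.36 and -0.37 in the control, EGF, DMSO-EGF and U0126 arrays of 2D03. In 2D04 the same arms read 0.11, 0.16, 0.08 and -0.60, and in 3D04 -0.03, -0.02, -0.13 and -2.59. The U0126 array thus lay level with DMSO-EGF in 2D03, somewhat below it in 2D04 and far below it in 3D04. At 48 h CDK1 read -0.37, -0.22, -0.42 and -2.34 in 2D03, -0.13, -0.06, -0.16 and -2.02 in 2D04, and -0.56, -0.64, -0.34 and -2.46 in 3D04. All 3 U0126 arrays then lay below all other arrays, with no overlap. The 2D difference at 48 h was -1.89 ± 0.15 (3.71-fold lower, adjusted p = 1.2e-11), after -0.34 ± 0.15 at 24 h (adjusted p = 0.33).

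Cyclin B1 (CCNB1), the partner of CDK1 in mitosis, lay above DMSO-EGF in 1 series at 24 h. Its DMSO-EGF and U0126 arrays read -0.82 and -0.29 in 2D03, 0.01 and -0.20 in 2D04, and -0.04 and -1.75 in 3D04. At 48 h they read -0.84 and -1.97, -0.06 and -1.5, and -0.44 and -3.05. The U0126 arrays were lowest in all 3 series at 48 h, and in 2D the difference was -1.28 ± 0.23 (2.44-fold lower, adjusted p = 0.00017). Cyclin A2 (CCNA2), which acts in S phase and G2, read -0.88 and -1.16 in 2D03 at 24 h, 0.32 and -0.83 in 2D04, and 0.01 and -3.03 in 3D04. Its 2D difference was -0.72 ± 0.50 at 24 h (adjusted p = 0.71) and -2.23 ± 0.50 at 48 h (4.69-fold lower, adjusted p = 0.0027). Of the 8 genes of this engine 7 fell at 48 h in 2D (all genes 3.84), with a median of -1.27. They included CDC25C, the phosphatase that activates CDK1 (-2.0 ± 0.29, adjusted p = 5e-06), and cyclin B2 (-1.18 ± 0.17, adjusted p = 3.8e-06). CKS1B, a small CDK-binding subunit, was another (-1.25 ± 0.11, adjusted p = 1.9e-10). The CDC25C probe sets disagreed at 48 h, from -2.0 to -0.31.

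The exception in this group was CDC25B, another phosphatase of CDK1. At 48 h its DMSO-EGF and U0126 arrays read -0.20 and -0.29 in 2D03, 0.34 and -0.09 in 2D04, and -0.07 and -0.38 in 3D04. The arrays of the 2 arms overlapped across series, and the 2D difference was -0.26 ± 0.28 (adjusted p = 0.80). CDC25B was also the 1 gene of 55 that did not pass in the late window of 3D (adjusted p = 0.094).

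The transcription factors of the programme, FOXM1 and B-MYB (MYBL2), stood at -1.97 and -1.82 at 48 h in 2D, against a median of -1.61 over the 55 genes. Neither passed there. FOXM1 read -0.28 and -2.19 with DMSO-EGF and U0126 in 2D03, 0.83 and -1.20 in 2D04, and 0.27 and -3.18 in 3D04. Every U0126 array lay below every array of the other arms, and the within-series differences were -1.91 and -2.03 in 2D. The series themselves stood apart: untreated FOXM1 at 0 h read -0.25 and -0.17 in 2D03, 1.09 and 0.75 in 2D04 and 1.03 and 1.00 in 3D04. The test without a block counts this offset as spread, which gave -1.97 ± 0.72 (adjusted p = 0.094). MYBL2 stood at -1.82 ± 0.64 (adjusted p = 0.076). Both passed with the series as a block. The other FOXM1 probe set read -0.07 at 48 h, so the probe sets of this gene disagree.

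The mitotic kinases fell in all 5 cases at 48 h in 2D (all genes 3.84, median -1.96). PLK1, a kinase of spindle assembly and mitotic exit, was slightly above DMSO-EGF in 2D03 at 24 h (-0.48 with DMSO-EGF and -0.06 with U0126), below it in 2D04 (0.34 and 0.05) and far below it in 3D04 (-0.29 and -2.51). At 48 h its arrays read -0.73 and -2.74, -0.10 and -2.17, and -0.81 and -4.09. No U0126 array overlapped the other arms at 48 h, and the 2D difference was -2.04 ± 0.24 (4.11-fold lower, adjusted p = 1.2e-07). Aurora A (AURKA), which matures the spindle poles, was at -0.06 ± 0.21 at 24 h and fell by 1.35 ± 0.21 at 48 h (adjusted p = 2.2e-05). The AURKA probe sets disagreed at 48 h, from -1.43 to -0.38. NEK2, a centrosome kinase, read -1.38 and -0.72 in 2D03 at 24 h and -0.98 and -2.92 at 48 h, and in 2D04 0.24 and -0.17, then -0.12 and -2.10. NEK2 was thus higher with U0126 in 2D03 at 24 h and lower in both series at 48 h.

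All 6 genes of the spindle checkpoint, which delays anaphase until chromosomes are attached, fell at 48 h in 2D (all genes 3.84, median -1.61). TTK, the kinase that starts checkpoint signalling, stood at -2.02, MAD2L1, an inhibitor of the anaphase-promoting complex, at -1.74, and TRIP13, an ATPase that remodels MAD2, at -2.04. BUB3, which recruits BUB1 to kinetochores, had the smallest change of the 6 at -0.78 ± 0.16 (1.72-fold lower, adjusted p = 6e-04). BUB1 was at -1.48 ± 0.42 (2.80-fold lower, adjusted p = 0.02). Its 5 probe sets disagreed, from -1.48 to 0.01.

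All 6 kinetochore genes, whose products join chromosomes to microtubules, fell (all genes 3.84, median -1.76). SPC25, a subunit of the NDC80 complex, had the largest change of all 55 genes at 48 h in 2D. At 24 h its DMSO-EGF and U0126 arrays read -0.59 and -1.90 in 2D03, 0.40 and -0.65 in 2D04 and 0.22 and -3.34 in 3D04. At 48 h they read -0.28 and -3.53, 0.18 and -2.85, and -0.32 and -4.87. The U0126 arrays were lowest at both times in every series, by -1.18 ± 0.37 at 24 h (adjusted p = 0.092) and -3.14 ± 0.37 at 48 h in 2D (8.82-fold lower, adjusted p = 1.1e-07). The fit behind these values has no series block and counts offsets between the series as spread. NDC80 itself stood at -1.88 ± 0.17 (adjusted p = 2.9e-10), CENPA, the histone of the centromere, at -2.10 ± 0.32, and CENPF at -1.64 ± 0.50 (adjusted p = 0.036). The CENPF probe sets disagreed, from -1.64 to -0.37. The 3 chromosomal passenger genes fell by a median of 2.01: the kinase Aurora B (AURKB) by 2.36 ± 0.28 (adjusted p = 1.3e-07), survivin (BIRC5) by 2.01 ± 0.25 (adjusted p = 3.7e-07) and borealin (CDCA8) by 1.87.

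All 5 genes of anaphase control fell (all genes 3.84, median -1.61). CDC20 activates the anaphase-promoting complex. Its DMSO-EGF and U0126 arrays at 24 h read -0.08 and -0.03 in 2D03, 0.62 and 0.24 in 2D04 and 0.07 and -2.22 in 3D04. At 48 h they read -0.34 and -1.89, 0.20 and -1.47, and -0.58 and -4.32. In 2D the arms were close at 24 h and did not overlap at 48 h (-1.61 ± 0.19, 3.05-fold lower, adjusted p = 7.9e-08). CDCA3, a trigger of mitotic entry, fell by 2.35 ± 0.74 (5.10-fold, adjusted p = 0.043), close to the threshold, and its series stood apart as those of FOXM1 did. The 10 spindle genes all fell (median -1.5), with the smallest change in the nuclear import factor KPNA2 at -0.64 ± 0.13 (1.56-fold, adjusted p = 0.0012), and so did the 4 cytokinesis genes (median -1.32), among them RACGAP1 at -1.18 ± 0.28 (adjusted p = 0.0045).

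Among 6 genes of chromosome structure 3 fell (all genes 3.84). TOP2A, the topoisomerase that untangles DNA, fell by 1.70 ± 0.25 (3.25-fold, adjusted p = 7.3e-06). The condensin subunits NCAPG and NCAPH fell by 2.35 ± 0.42 (adjusted p = 0.00017) and 2.16 ± 0.39 (adjusted p = 0.00022). The core condensin subunits SMC2 and SMC4 stood at -0.55 ± 0.30 (adjusted p = 0.37) and -0.63 ± 0.63 (adjusted p = 0.77), and LMNB1 at -1.72 ± 0.57 (adjusted p = 0.057). SMC4 differed between series at the outset, with 0 h controls of -0.54 and -0.38 in 2D03 and 1.31 and 0.58 in 2D04. Its other 2 probe sets read -1.07 and -0.80 at 48 h. SMC2 and LMNB1 passed with the series block, while CDC25B and SMC4 did not.

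**Figure D3:**
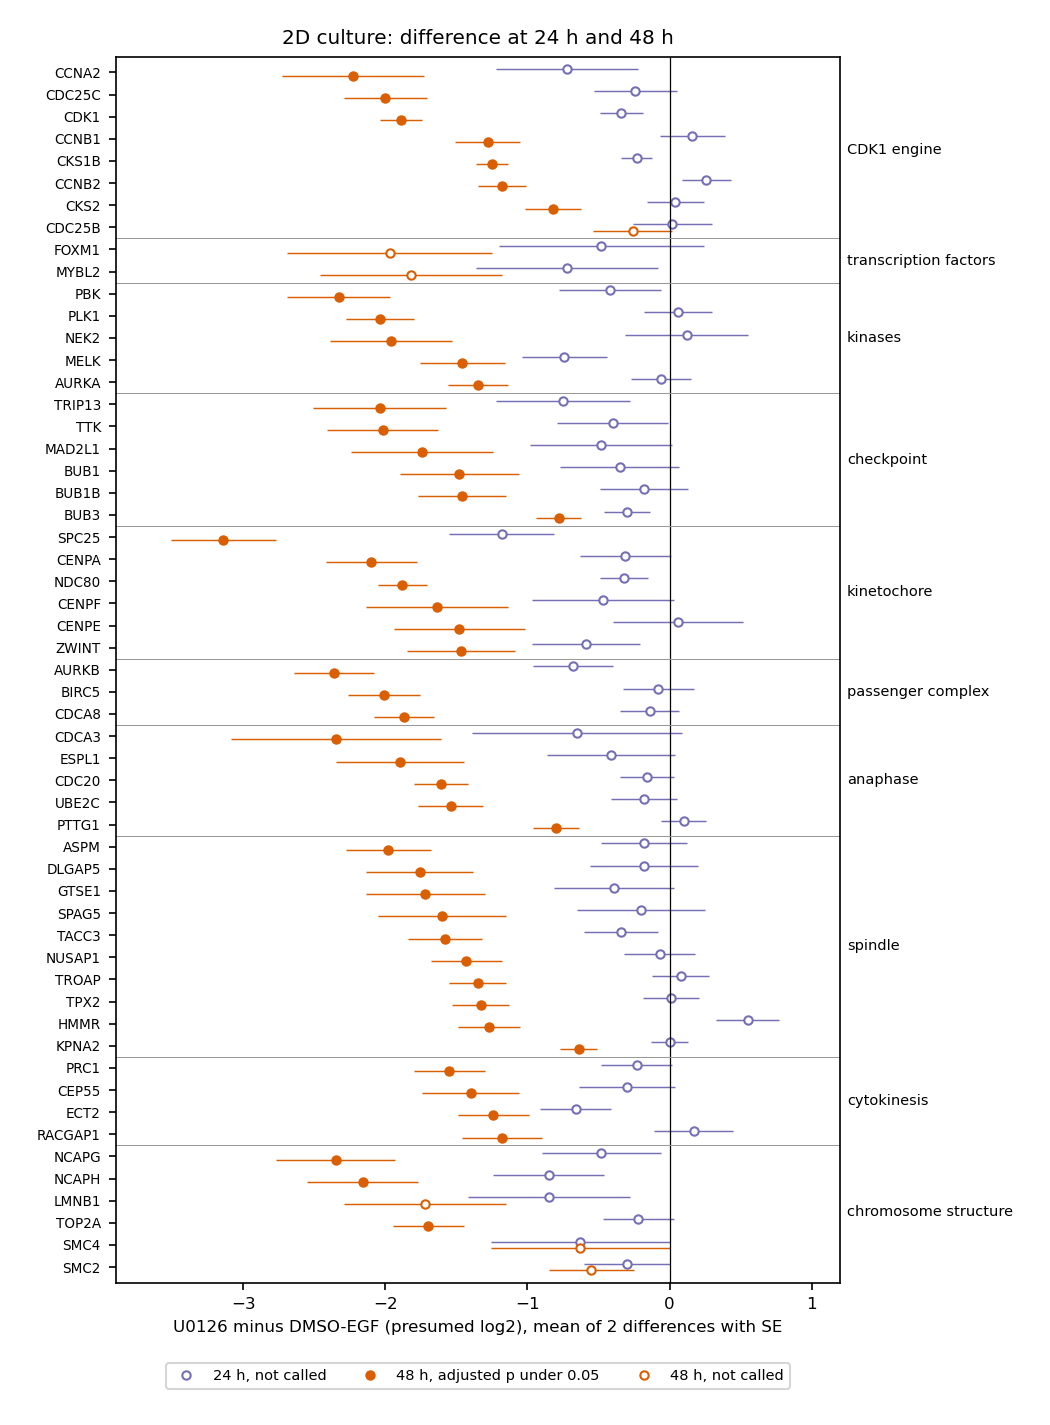
U0126 minus DMSO-EGF difference in 2D (log2, horizontal axis) at 24 h and 48 h for each of the 55 genes (vertical axis), with SE from limma (2 arrays per arm and time). The 24 h points lie between -1.18 (SPC25) and 0.55 (HMMR) and the 48 h points between -3.14 (SPC25) and -0.26 (CDC25B).

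The arm that moved most between the 2 days was U0126. From 24 h to 48 h, 33 of 55 genes fell within the U0126 arm (all genes 1.27; median -1.29), and 52 with the series block (all genes 4.93). Within the control and EGF arms 0 passed (all genes 0.00838 in each), and within DMSO-EGF 0 passed (all genes 0.0). The medians there were -0.12, -0.03 and 0.04. At an unadjusted p under 0.05 were 5, 3 and 2 genes, against 492, 473 and 467 of all 11940 genes. In control HMMR changed by -1.01 ± 0.22 (adjusted p = 0.26, limma). The EGF and DMSO-EGF medians combine series that moved in opposite directions. Array medians of the 55 genes with DMSO-EGF went from -0.58 to -0.36 in 2D03 and from 0.25 to 0.09 in 2D04. With EGF they went from -0.50 to -0.31 and from 0.30 to 0.03. With U0126 they went from -0.53 to -1.97 and from -0.28 to -1.53. Against the other arms the 48 h counts were close to that against DMSO-EGF. With U0126, 49 genes were lower than with EGF (all genes 4.31, median -1.63) and 50 lower than in control (all genes 3.74, median -1.64). These comparisons share the U0126 arrays. At 48 h 0 genes differed between DMSO-EGF and EGF (all genes lower 0.0, median -0.02). Between EGF and control it was also 0 (all genes lower 0.0, median 0.01). Each had 0 at an unadjusted p under 0.05, against 93 and 40 of all 11940 genes.

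Whether the U0126 difference itself changed between 24 h and 48 h was tested in the same fit. It was more negative at 48 h in 54 of 55 genes (median change -1.36), and 12 passed as lower, of 20 among all genes (all genes 0.168). These were CDK1, CCNB1, CCNB2, CKS1B, PLK1, NDC80, BIRC5, CDCA8, CDC20, TPX2, HMMR and TROAP. The change was -2.10 ± 0.34 in PLK1 (adjusted p = 0.00069), -1.94 ± 0.35 in BIRC5 (adjusted p = 0.0033) and -1.54 ± 0.21 in CDK1 (adjusted p = 0.00013). NEK2 and SPC25 had changes of -2.08 ± 0.61 (adjusted p = 0.32) and -1.96 ± 0.52 (adjusted p = 0.17). Neither passed in this fit, which has no series block and counts offsets between the series as spread. In SPC25 the change was alike in both series, from -1.31 to -3.25 in 2D03 and from -1.05 to -3.03 in 2D04. The smallest changes were those of SMC4 (0.00), SMC2 (-0.26), CDC25B (-0.28) and BUB3 (-0.49). The other SMC4 probe sets read -0.30 and -0.02 at 24 h in 2D, and -1.07 and -0.80 at 48 h. The probe sets of SMC4 thus disagree. Other BUB3 probe sets read from -0.56 to -0.35 at 24 h and -0.50 at 48 h. With the series block 48 genes passed (all genes 0.921). The count was 6 without the DMSO-EGF array of 2D03 at 24 h, 6 without that of 2D04 at 48 h, and 28 without that of 2D04 at 24 h.

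HMMR had the most positive difference of the 55 genes at 24 h in 2D and was lower at 48 h. At 24 h its DMSO-EGF and U0126 arrays read -1.25 and -0.33 in 2D03, -1.20 and -1.03 in 2D04, and -1.14 and -3.68 in 3D04. At 48 h they read -1.95 and -2.80, -1.66 and -3.35, and -1.34 and -4.54. U0126 arrays were the higher ones in both 2D series at 24 h and the lower ones in all series at 48 h. The 2D difference was 0.55 ± 0.22 at 24 h (adjusted p = 0.27) and -1.27 ± 0.22 at 48 h (2.41-fold lower, adjusted p = 1e-04), a change of -1.82 ± 0.31 (adjusted p = 0.0014). CCNB2 (0.26 ± 0.17), RACGAP1 (0.17 ± 0.28) and CCNB1 (0.16 ± 0.23) followed HMMR as the most positive at 24 h, and none of these passed.

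The 2 series of 2D culture were not alike at 24 h. Within 2D03 the median difference over the 55 genes was -0.01, and within 2D04 it was -0.56, while at 48 h they were -1.48 and -1.72. The reference arms differed too. In 2D03 the array medians of the 55 genes at 24 h were -0.31, -0.50, -0.58 and -0.53 in control, EGF, DMSO-EGF and U0126, after 0.16 and 0.21 in the 0 h controls. In 2D04 they were 0.24, 0.30, 0.25 and -0.28, after 0.48 and 0.45. The median of every arm was lower at 24 h than the 0 h controls of its series. In 2D03 the U0126 array lay among the other arms, and in 2D04 it lay below all 3. In 3D04 they were 0.04, 0.08, 0.06 and -2.01. The part of the lower reference arms of 2D03 in its 24 h difference was not tested.

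**Figure D4:**
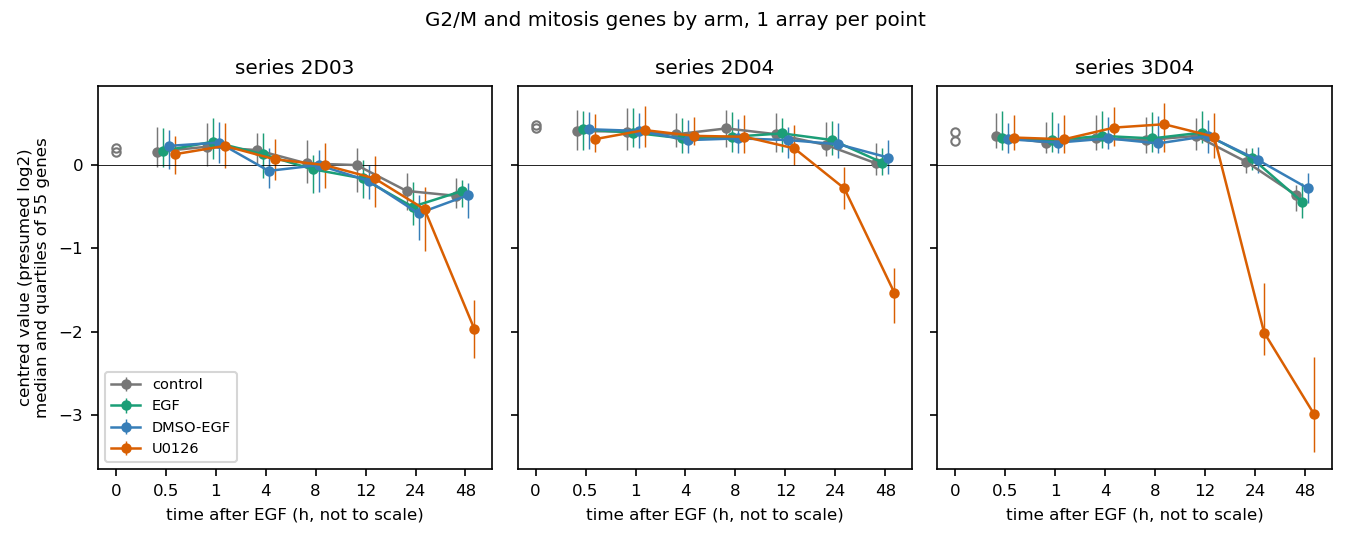
Median of the 55 genes on each array (centred log2 value, vertical axis) against hours after EGF (horizontal axis) for the control, EGF, DMSO-EGF and U0126 arms in each series, with bars from the lower to the upper quartile of the genes and open circles for the 0 h controls. The U0126 arrays leave the other arms at 48 h in 2D03 (-1.97 against -0.37 to -0.31), and lie at -0.28 at 24 h and -1.53 at 48 h in 2D04 and at -2.01 and -2.99 in 3D04.

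Onset was read in each series as the first time from which a gene's U0126 minus DMSO-EGF difference was at or below -0.58 (1.5-fold) at that and every later time, with 1 array per arm and no test. By 24 h, 5 of 55 genes had an onset in 2D03 (all genes 2.58), 25 in 2D04 (all genes 3.87) and 52 in 3D04 (all genes 6.45). At any time it was 53 (all genes 5.64), 53 (all genes 7.91) and 52 (all genes 10.2). With a threshold of -1 the counts by 24 h were 1 in 2D03 and 4 in 2D04, and with -0.32 they were 12 and 47. The count of early onsets in 2D04 therefore depends on the threshold more than that in 3D04, which was 48 at -1 and 53 at -0.32.

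The commonest sequence of onsets was 48 h in 2D03, 48 h in 2D04 and 24 h in 3D04, in 28 genes. It held for the B cyclins, PLK1, AURKA, CDC20, BUB1, the spindle genes TPX2, HMMR and ASPM, and TOP2A. In 18 genes it was 48 h, 24 h and 24 h, among them CDK1, CCNA2, FOXM1, AURKB, BIRC5, MAD2L1 and NCAPG. Only 4 genes had an onset at 24 h in all 3 series: MELK, a kinase, SPC25, ECT2, the exchange factor that starts the cleavage furrow, and NCAPH. MYBL2 came at 48 h, 24 h and 12 h. LMNB1 came at 8 h in 2D03, which rests on the array with low 5′ actin values, and at 24 h in 2D04 and 3D04. SMC2 met the threshold in 2D03 alone, SMC4 in 2D04 alone and CDC25B in no series.

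At 24 h in 2D the U0126 arrays lay below all arrays of the other arms in 6 of 55 genes (all genes 8.65), and at 48 h in 53 (all genes 12.8), all but CDC25B and SMC2. In 3D, with 1 U0126 array against 3, all 55 were below at 24 h (all genes 32.6) and at 48 h (all genes 34.8).

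The difference between cultures was tested with 1 mean per culture, arm and time over all 96 arrays, where the single 3D arrays were assumed to vary like the 2D repeats. By that fit 47 of 55 genes were lower with U0126 in 3D at 24 h (all genes 3.15) and 47 at 48 h (all genes 4.51). The 24 h difference was more negative in 3D than in 2D for 22 genes (all genes 0.469; median -1.86), of 56 such genes on the whole array. With the series block there were 49 (all genes 1.77), and without the DMSO-EGF array of 2D03 at 24 h there were 10. With quantile normalization there were 11 (all genes 0.302). Against 2D03 alone the median was -2.14 and against 2D04 alone -1.55.

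HMMR had the largest difference between cultures at 24 h, -3.08 ± 0.37 (adjusted p = 1.2e-06). It was -2.12 ± 0.25 in CDK1 (adjusted p = 1.2e-06), -2.28 ± 0.41 in PLK1 (adjusted p = 0.0011) and -2.12 ± 0.32 in CDC20 (adjusted p = 4.2e-05). CCNB1 was at -1.87 ± 0.39 (adjusted p = 0.0075), CKS1B at -1.77 ± 0.19 (adjusted p = 2.5e-07) and NDC80 at -2.04 ± 0.29 (adjusted p = 1.6e-05). NEK2 (-2.70 ± 0.74, adjusted p = 0.088) and NCAPG (-2.44 ± 0.72, adjusted p = 0.14) were as large and did not pass in this fit without the series block. LMNB1 (0.08), SMC4 (0.04) and SMC2 (-0.18) were nearest to equal in the 2 cultures. For SMC4 this held for the probe set used. Its other probe sets read -0.30 and -0.02 in 2D and -1.13 and -0.86 in 3D at 24 h.

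**Figure D5:**
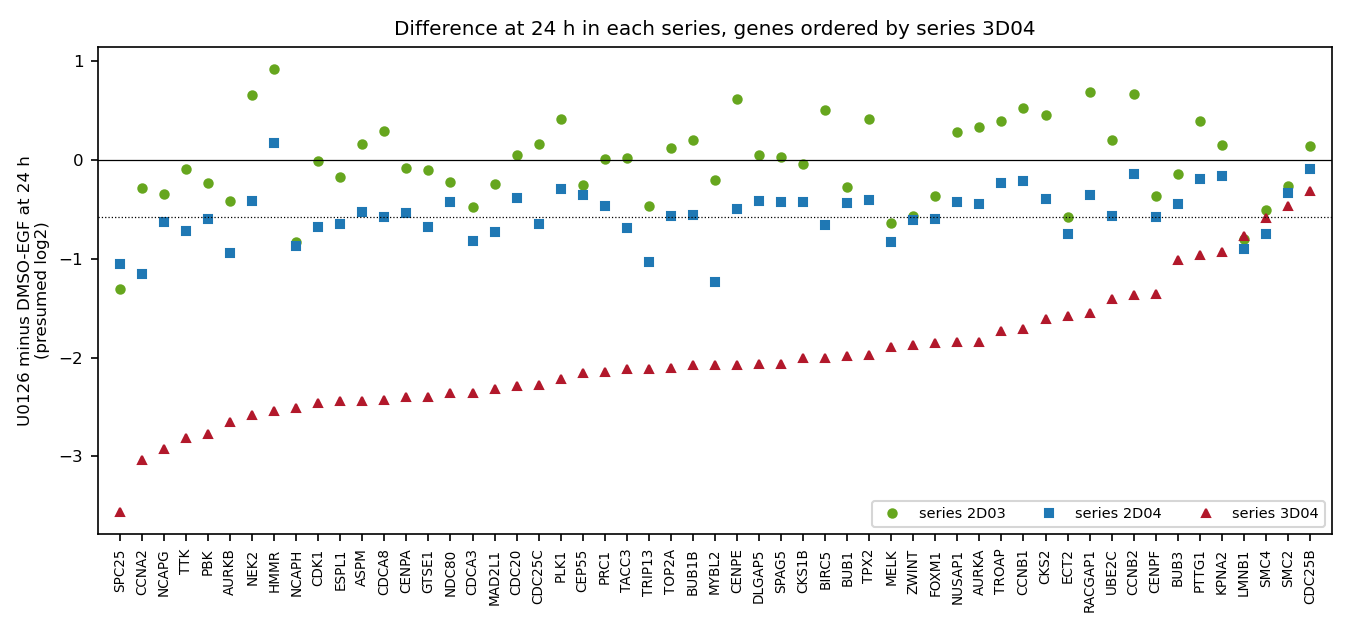
U0126 minus DMSO-EGF difference at 24 h (log2, vertical axis) of each of the 55 genes in series 2D03, 2D04 and 3D04 (1 array per arm and series), with the onset threshold of -0.58 as a dotted line. The median is -0.01 in 2D03, -0.56 in 2D04 and -2.07 in 3D04, and 52 genes had an onset by 24 h in 3D04.

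The 48 h difference was more negative in 3D for 10 genes (all genes 0.586; median over the 55 genes -1.10): CCNB2, CKS1B, NDC80, BIRC5, CDC20, PTTG1, TPX2, HMMR, DLGAP5 and PRC1. The count was 29 with the series block (all genes 1.96) and 1 with quantile normalization (all genes 0.176). Most of these calls thus depend on the scaling. Without the DMSO-EGF array of 2D03 the count was 5, and without the U0126 array of 2D04 it was 6. CDC20 stood at -2.13 ± 0.32 (adjusted p = 4e-05), BIRC5 at -1.90 ± 0.43 (adjusted p = 0.014) and CCNB2 at -1.75 ± 0.28 (adjusted p = 0.00018). DLGAP5, a microtubule-bundling protein, read 0.33 and -4.05 with DMSO-EGF and U0126 in 3D04 at 48 h, against -0.21 and -2.03 in 2D03 and 0.55 and -1.14 in 2D04. PTTG1, which encodes securin, read -0.20 and -2.46, against -0.52 and -1.11 and 0.07 and -0.93. In contrast CDK1 differed by -0.23 ± 0.25 between cultures at 48 h (adjusted p = 1.0), TRIP13 by -0.01 ± 0.80 and BUB3 by -0.03 ± 0.27. The 3D differences at 24 h and 48 h were -2.46 and -2.12 for CDK1, -1.01 and -0.81 for BUB3, -2.29 and -3.74 for CDC20, -2.0 and -3.91 for BIRC5 and -1.85 and -3.45 for FOXM1. Tested within 3D in the fit of all arrays, the 48 h difference was more negative than the 24 h one in 1 of 55 genes, CCNB2 (-1.56 ± 0.33, adjusted p = 0.035; all genes 0.067), with 9 at an unadjusted p under 0.05 and a median change of -0.59. The changes in CDK1 (0.34 ± 0.29, adjusted p = 1), BUB3 (0.20 ± 0.31, adjusted p = 1), CDC20 (-1.45 ± 0.37, adjusted p = 0.16), BIRC5 (-1.91 ± 0.50, adjusted p = 0.18) and FOXM1 (-1.60 ± 1.42, adjusted p = 1) did not pass.

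Within 3D alone, with the 24 h and 48 h arrays of an arm as repeats, 54 of 55 genes were lower with U0126 in the late window (all genes 15.5; median -2.38). In 2D the late window called 44 (all genes 5.94; median -0.96), or 27 without the DMSO-EGF array of 2D04 at 24 h. In a joint fit that took each sampling time of a series as a block, 48 of 55 had a more negative late difference in 3D (all genes 5.85; median -1.43), or 30 without the 3D arrays of 48 h. The genes that did not pass in the joint fit were CDC25B, MYBL2, BUB1, CENPF, SMC2, SMC4 and LMNB1.

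Untreated control cells also drifted. Against the 4 controls at 0 h, 0 of 55 genes passed in the 24 h controls of 2D (all genes 0.0754). There were 7 at an unadjusted p under 0.05, against 869 of all 11940 genes. All 55 differences lay below 0 (median -0.30). At 48 h 10 had fallen (all genes 2.76; median -0.46). HMMR fell most, by 1.29 ± 0.19 (adjusted p = 3.6e-05), followed by NDC80 at -0.91 ± 0.15 (adjusted p = 0.00016), PLK1 at -0.78 ± 0.21 (adjusted p = 0.02) and CDCA8 at -0.77 ± 0.18 (adjusted p = 0.0073). CDC20, BUB3, CCNB2, CDK1, CKS1B and KPNA2 were the others, between -0.67 and -0.38. With the series block 9 passed at 24 h (all genes 1.29) and 33 at 48 h (all genes 8.55). The 48 h count was 4 without the 2D03 control and 5 without the 2D04 control. In 3D, 16 genes were lower in the late controls than at 0 h (all genes 4.39, median -0.52). The count was 30 with quantile normalization (all genes 5.54) and 27 with array weights (all genes 4.55). The drift in control was therefore in the same direction as the U0126 difference and smaller in the median, -0.46 against -1.61 at 48 h in 2D.

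Genes of neighbouring functions were read from lists of named genes that are not among the 55. By the same test in 2D, 1.16% of all genes were lower with U0126 at 24 h and 3.84% at 48 h. Of 12 mitotic kinesins, the motors of the spindle, 0 were lower with U0126 at 24 h and 9 at 48 h in 2D (medians -0.22 and -1.48), with KIF2C at -2.17 ± 0.20 (adjusted p = 6.3e-10) and KIF4A at -1.41 ± 0.15 (adjusted p = 6.9e-09). Of 47 other mitotic genes 3 and 17 were lower (medians -0.22 and -0.71), HJURP, the chaperone of CENPA, among them at -2.28 ± 0.17 (adjusted p = 3.8e-12). Of 43 G1/S and DNA replication genes 3 and 24 were lower, with medians of -0.97 and -1.44. ORC6, of the origin recognition complex, stood at -1.75 ± 0.12 at 48 h (adjusted p = 8.8e-13). Of 11 DREAM and RB family genes 2 and 1 were lower (medians -0.15 and -0.25), and MYBL1 was the 1 at 48 h, at -1.09 ± 0.16 (adjusted p = 8.3e-06). By 24 h an onset was read in 32 of the 43 G1/S genes in 2D03, 37 in 2D04 and 37 in 3D04 (74.4%, 86.0% and 86.0%), against 5, 25 and 52 of the 55 G2/M and mitosis genes (9.09%, 45.5% and 94.5%). The kinesins had 0, 5 and 10 of 12. Whether the lists differ in onset was not tested.

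Genes with and without a CHR match (TTTGAA or TTCGAA) had close medians at 48 h and in 3D. At 24 h in 2D the median difference was -0.27 in the 34 genes with a CHR and -0.68 in the 11 without one. At 48 h the medians were -1.62 and -1.72 in 2D and -2.77 and -2.61 in 3D, and at 24 h in 3D -2.13 and -2.07. The ranges overlapped at 24 h in 2D. Genes with a CHR match ran from -1.18 (SPC25) to 0.55 (HMMR), and those without one from -0.85 to 0.16 (CCNB1). MELK and MYBL2, printed above with no match to either element, stood at -0.74 and -0.72. The split is given as a description of these genes, with no test.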

How the data were processed

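Labels gave 96 arrays of MDA-MB-231 RNA (array titles name the series and 05h was read as 0.5 h). The deposited values are one table, taken as log2 since RMA, named in the submitters' processing notes, gives signals on that scale. The log base and the centring are not stated: array medians lay between -0.06 and 0.03 and values between -5.0 and 5.7, so folds rest on that reading. Precision is limited by the number of arrays. No filter on low values was used.

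Of 22930 probe sets, 524 were controls, 19415 had 1 gene symbol, 2866 had no entry, and 125 had several symbols and were not used. Where a gene had several probe sets, the most variable (largest SD) stood for it, which can make its changes larger.

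The fits used limma 3.58.1 under R 4.3.3 (lmFit, then eBayes with trend; Benjamini-Hochberg over 11940 genes per comparison, threshold 0.05). The 2D fit held 64 arrays in 31 groups (33 residual degrees of freedom), the 3D window fit 32 arrays (17), the fit of all arrays 34 and the joint fit 84 arrays after 0 h. "All genes" beside a count is the percent of all 11940 genes that pass the same rule. Errors are SE. The pairing of repeat numbers was checked over 465 pairs of groups: the repeats' deviations correlated at 0.228 to 0.818 (median 0.635), so repeat numbers pair the samples (they follow the series in the labels), and a fit with this block was run for the 2D counts and the single-time 3D and 3D minus 2D counts, not for the 3D window fit. Tests were checked on simulated data. Promoters and figures were handled with Python 3.11.15.

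The 55 genes and the lists were chosen with earlier results of these data known. All 55 genes may be named. Those always given are CDK1, CCNB1, CCNA2, PLK1, AURKA, AURKB, CDC20, FOXM1, TOP2A, BIRC5, BUB1, CENPF and BUB3, with those at the extremes of each comparison. Alternatives were other probe set rules, a filter on SD, median centring, quantile normalization, array weights, no variance trend, the series block, each series alone and arrays left out.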

Additional observations from a re-analysis of the deposited data

Results flagged for a closer look

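In 2D the U0126 minus DMSO-EGF difference was more negative at 48 h than at 24 h by the test of that change itself in 12 of the 55 genes (0.168% of all genes), or in 6 to 28 on leaving out 1 array and 48 with the replicate block. Of the genes always given, the change was -1.54 in CDK1, -1.44 in CCNB1, -2.10 in PLK1, -1.44 in CDC20 and -1.94 in BIRC5. Of the genes at the extremes of 24 h, it was -1.82 in HMMR and -1.44 in CCNB2.

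Between cultures the difference was more negative in 3D at 24 h in 22 genes by a test of the difference (0.469% of all genes), in 11 with quantile normalization, in 49 with the replicate block and in 10 to 32 on leaving out 1 array. It was -2.12 in CDK1, -1.87 in CCNB1, -2.28 in PLK1, -1.78 in AURKA, -1.98 in AURKB, -2.12 in CDC20, -1.88 in TOP2A and -1.92 in BIRC5. It was -0.92 in KPNA2, -3.08 in HMMR and -1.64 in CCNB2. At 48 h 10 genes passed (0.586% of all genes), 1 with quantile normalization and 5 to 11 on leaving out 1 array, with -2.13 in CDC20, -1.90 in BIRC5, -1.93 in HMMR and -1.75 in CCNB2. Culture and series 3D04 cannot be told apart, since all 3D arrays belong to that series.

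Among the 4 untreated 2D arrays at 0 h, 1 array of series 2D04 stood above the others for TOP2A, at 0.57 against 0.33 to 0.37. Its gap to the nearest array was 0.833 of the range of the 4, just past Dixon's limit for 4 samples, which chance passes in some groups.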

How the results depend on the processing

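The fall at 48 h in 2D kept its direction under every alternative run, with counts from 29 (without the DMSO-EGF array of 2D04) to 49 on leaving out an array. At 24 h 1 gene passed with quantile normalization, with the mean over probe sets, with every probe set and with the highest-mean probe set, and 15 with the replicate block; leaving out an array gave 0 to 1. At 8 h and 12 h the mean over probe sets, every probe set and the highest-mean probe set gave 1 each, and the block 1 and 2. In the middle window the count was 4 with the block, 1 with median centring, quantile normalization, array weights or the mean over probe sets, and 0 without the low-actin arrays, a setting for the other 2D counts that was chosen after seeing the data. The block gave 48 for 48 h minus 24 h, 52 for the U0126 arm, 9 and 33 for the controls at 24 h and 48 h, and 49 and 29 for 3D minus 2D, and it changed no other count by over 1.5 times. The 24 h controls gave 1 with the mean over probe sets or every probe set.

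The late 3D controls rose from 16 to 30 with quantile normalization and 27 with array weights. For 3D minus 2D, quantile normalization gave 11 at 24 h and 1 at 48 h, and the late joint count was 30 without the 3D arrays of 48 h. The median at 48 h was -0.90 against 2D04 alone. Thresholds of -1 and -0.32 moved the onsets by 24 h to 1 and 12 in 2D03 and 4 and 47 in 2D04. The causes were not tested.

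On leaving out an array the counts ran from 27 to 49 in the late window, 6 to 28 for 48 h minus 24 h, 24 to 34 in the U0126 arm, 10 to 32 and 5 to 11 for 3D minus 2D at 24 h and 48 h, 45 to 49 in the joint fit, 0 to 0 for the controls at 24 h and 4 to 10 at 48 h. Of the named genes' values under alternatives, 1675 kept their side of the threshold, 76 newly passed, 58 no longer passed and 0 reversed. Array weights were not run for the fits of all 96 arrays, and single series give values with no test.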
